A study of Mus musculus with 12 samples.

Results

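The inner membrane of mitochondria carries the respiratory chain and ATP synthase, and most of their protein subunits are encoded in the nucleus. Described here are 84 nuclear genes of complexes I, II, III and V and of cytochrome c, among 52459 gene symbols in a table of choroid plexus RNA-seq. They were taken by symbol: names that begin with Nduf, Sdhaf, Uqcr, Uqcc or Atp5, with Sdha, Sdhb, Sdhc, Sdhd, Cyc1 and Cycs, and without 7 symbols marked as pseudogenes. The symbols alone chose them, though the group of genes was proposed with earlier results of these data known. Of the 84 genes, 65 encode subunits and 15 have symbols of assembly factors (8 Ndufaf, 4 Sdhaf and 3 Uqcc genes). By symbol, 4 were counted as neither: Cycs, Ndufa4l2, Atp5s and Atp5sl. The subunits include Ndufa4, which has a complex I name and belongs to complex IV.

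Choroid plexus lines parts of the brain ventricles: an epithelium that secretes cerebrospinal fluid sits on a stroma with vessels. Tissue of B6 mice was dissected at 4 ages, the embryonic stage E12.5, birth (P0), the postnatal stage P14 and 6 months (A6m), with 3 libraries each. All are of the same strain, with no sex or ventricle given, and the number of animals per specimen is not given either, so the p-values measure only the spread between these libraries. Values are TPM, a transcript level adjusted for length and for the library total, so genes can be compared with each other within a library. The tissue was profiled in bulk, so that fewer cells of a type and less RNA per cell cannot be told apart.

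Complex I takes electrons from NADH and complex II takes them from succinate. Both pass them through ubiquinone to complex III, which hands them to cytochrome c. Complexes I and III pump protons on the way, and complex V, ATP synthase, lets protons flow back through a rotating ring of c subunits to make ATP. Assembly factors are not part of the finished complexes: they insert cofactors, hold intermediates together and leave. Complexes I, III and V also contain a few subunits encoded by mitochondrial DNA, while complex II has none. The choroid plexus epithelium is rich in mitochondria and spends ATP on the ion transport that drives fluid secretion.

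Several features of the libraries bear on the values. Mitochondrially encoded genes took 13.9% ± 3.41, 21.2% ± 1.28, 30.7% ± 1.95 and 32.6% ± 1.40 of the TPM from E12.5 to A6m (SD, n = 3). The epithelial gene Ttr took 1.54% ± 0.503, 14.2% ± 0.107, 16.2% ± 0.894 and 14.1% ± 0.460. Since the TPM of a library has a fixed sum, all other genes share what these leave. Epithelial markers were present at every age. The 10 listed genes, Ttr among them, summed to 12900 to 23788 TPM at E12.5 and 148788 to 150465 TPM at P0. The sums were 179909 to 195213 TPM at P14 and 172587 to 178804 TPM at A6m. Most of each sum was Ttr. Over the 10 genes as deposited, the median log2 difference was 2.18 at P0 against E12.5, where 9 were called higher. It was 0.06 at P14 against P0, 0.08 at A6m against P14 and 2.28 at A6m against E12.5. With the scaling described below, these medians were 2.46, 0.58, 0.13 and 3.12. Erythroid markers summed to 83.8 to 312 TPM at A6m and to 27573 to 35401 TPM at E12.5, and the 5 genes of dividing cells to 10.1 to 13.3 TPM at A6m and 711 to 769 TPM at E12.5. The part of these mixtures in the results below was not tested. In E12.5 replicate 1, 7 ribosomal and small-RNA features, chosen after their values were seen, made up 16.5% of the TPM, and in replicates 2 and 3 of that age 2.46% and 3.29%. A6m libraries held Xist at 148 to 155 TPM and Ddx3y, of the Y chromosome, below 0.367 TPM, whereas P0 and P14 libraries held Ddx3y at 80.1 to 117 TPM and Xist below 0.809 TPM, and 2 of the 3 E12.5 libraries held both. Sex and age therefore cannot be told apart between A6m and P14. By these genes the make-up by sex also differed between E12.5 and P0 and between E12.5 and A6m. The part of sex in those comparisons was not tested.

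Subunit transcripts took a larger part of the TPM at P0, 1.79% ± 0.0556, than at E12.5, where they took 1.33% ± 0.113. Of the TPM left without mitochondrially encoded genes they took 1.55% ± 0.105, 2.27% ± 0.0932, 2.88% ± 0.0851 and 2.73% ± 0.0838 from E12.5 to A6m. The 65 subunits summed to 13332 ± 1128 TPM at E12.5, 17920 ± 556 TPM at P0, 19960 ± 1132 TPM at P14 and 18372 ± 649 TPM at A6m (SD, n = 3 per age). The lowest P0 library, at 17379 TPM, was above the highest E12.5 library, at 14556 TPM. Assembly factors took a small part of the total: they summed to 419 ± 34.2, 381 ± 16.8, 367 ± 25.8 and 408 ± 17.4 TPM at the same ages, and libraries of neighbouring ages overlapped. The ratio of the sums was 31.8 ± 1.33, 47.1 ± 0.865, 54.5 ± 0.720 and 45.1 ± 1.51 from E12.5 to A6m. It does not change when all values of a library are multiplied by the same factor, since both sums come from the same library.

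**Figure D1:**
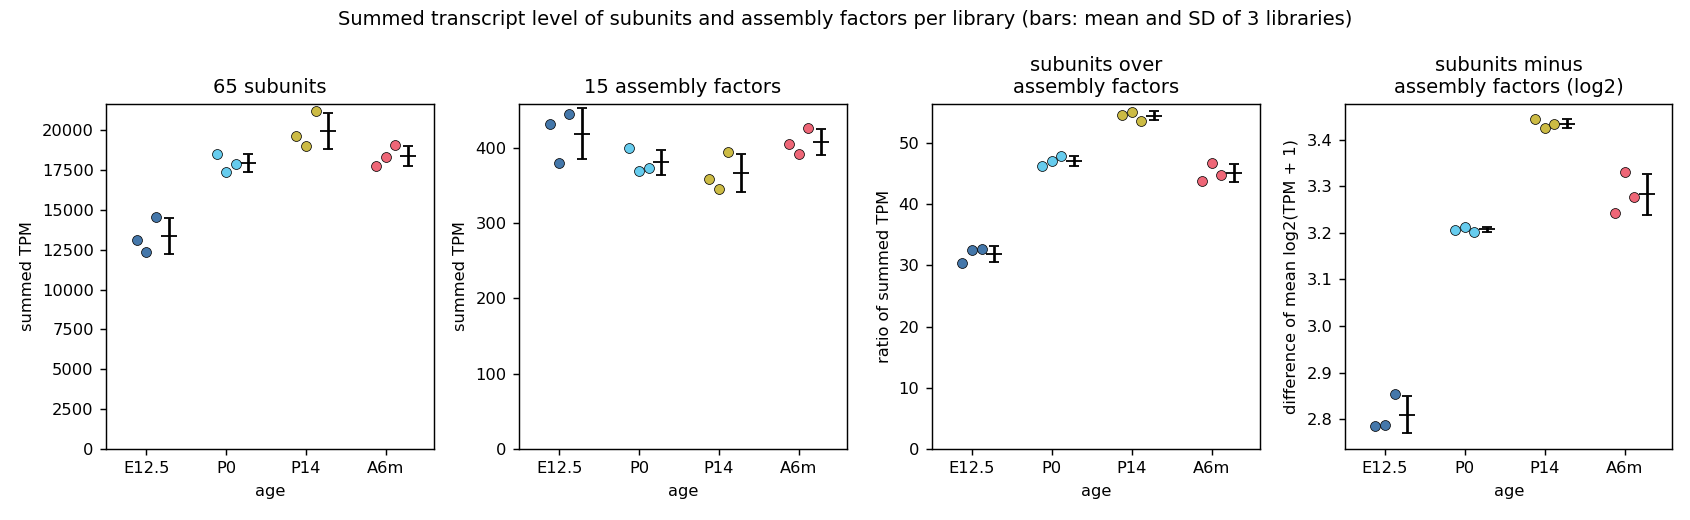
Points are libraries by age and bars are means with SD over 3 libraries. The left panels plot the summed TPM of 65 subunits and of 15 assembly factors, the third their ratio, and the right panel the mean log2(TPM + 1) of subunits minus that of assembly factors, on an axis that does not start at 0. Ratios were 53.7 to 55.1 at P14 and 30.3 to 32.7 at E12.5.

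Counting each gene equally, the mean log2(TPM + 1) of subunits exceeded that of assembly factors by 2.79, 2.79 and 2.85 in the E12.5 libraries, by 3.21, 3.21 and 3.20 at P0, by 3.44, 3.43 and 3.43 at P14 and by 3.24, 3.33 and 3.28 at A6m. All 3 P0 values lay above all E12.5 values, all P14 values above all P0 values, and all A6m values between those of P0 and P14. The differences between age means were 0.40 for P0 against E12.5, 0.23 for P14 against P0, -0.15 for A6m against P14 and 0.47 for A6m against E12.5, given as a description with no test. With scaling (each library divided by its median ratio to a common average over 19075 genes) these were 0.42, 0.26, -0.15 and 0.52. Quantile normalization can shift high and low genes by different amounts, and with it they were 0.28, 0.11, -0.16 and 0.23.

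Gene by gene, all 84 passed the filter of at least 1 TPM in at least 3 libraries and were tested with limma among 17422 genes. A gene is called at an adjusted p under 0.05. Over the 4 ages, the limma F-test called 66 of the 84, where 85.1% of all tested genes were called. With scaling it called 81, where 79.8% of all tested genes were called. The 18 that were not called as deposited had adjusted p of 0.0565 to 0.974, and among them were Atp5e, Ndufa7, Ndufa9 and Ndufb8. Across all 17422 genes the median log2 difference was -0.27 for P0 against E12.5, -0.41 for P14 against P0, -0.04 for A6m against P14 and -0.71 for A6m against E12.5, so a gene that held its TPM moved up relative to most others. With scaling these medians were close to 0, and both scales are given below.

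**Figure D2:**
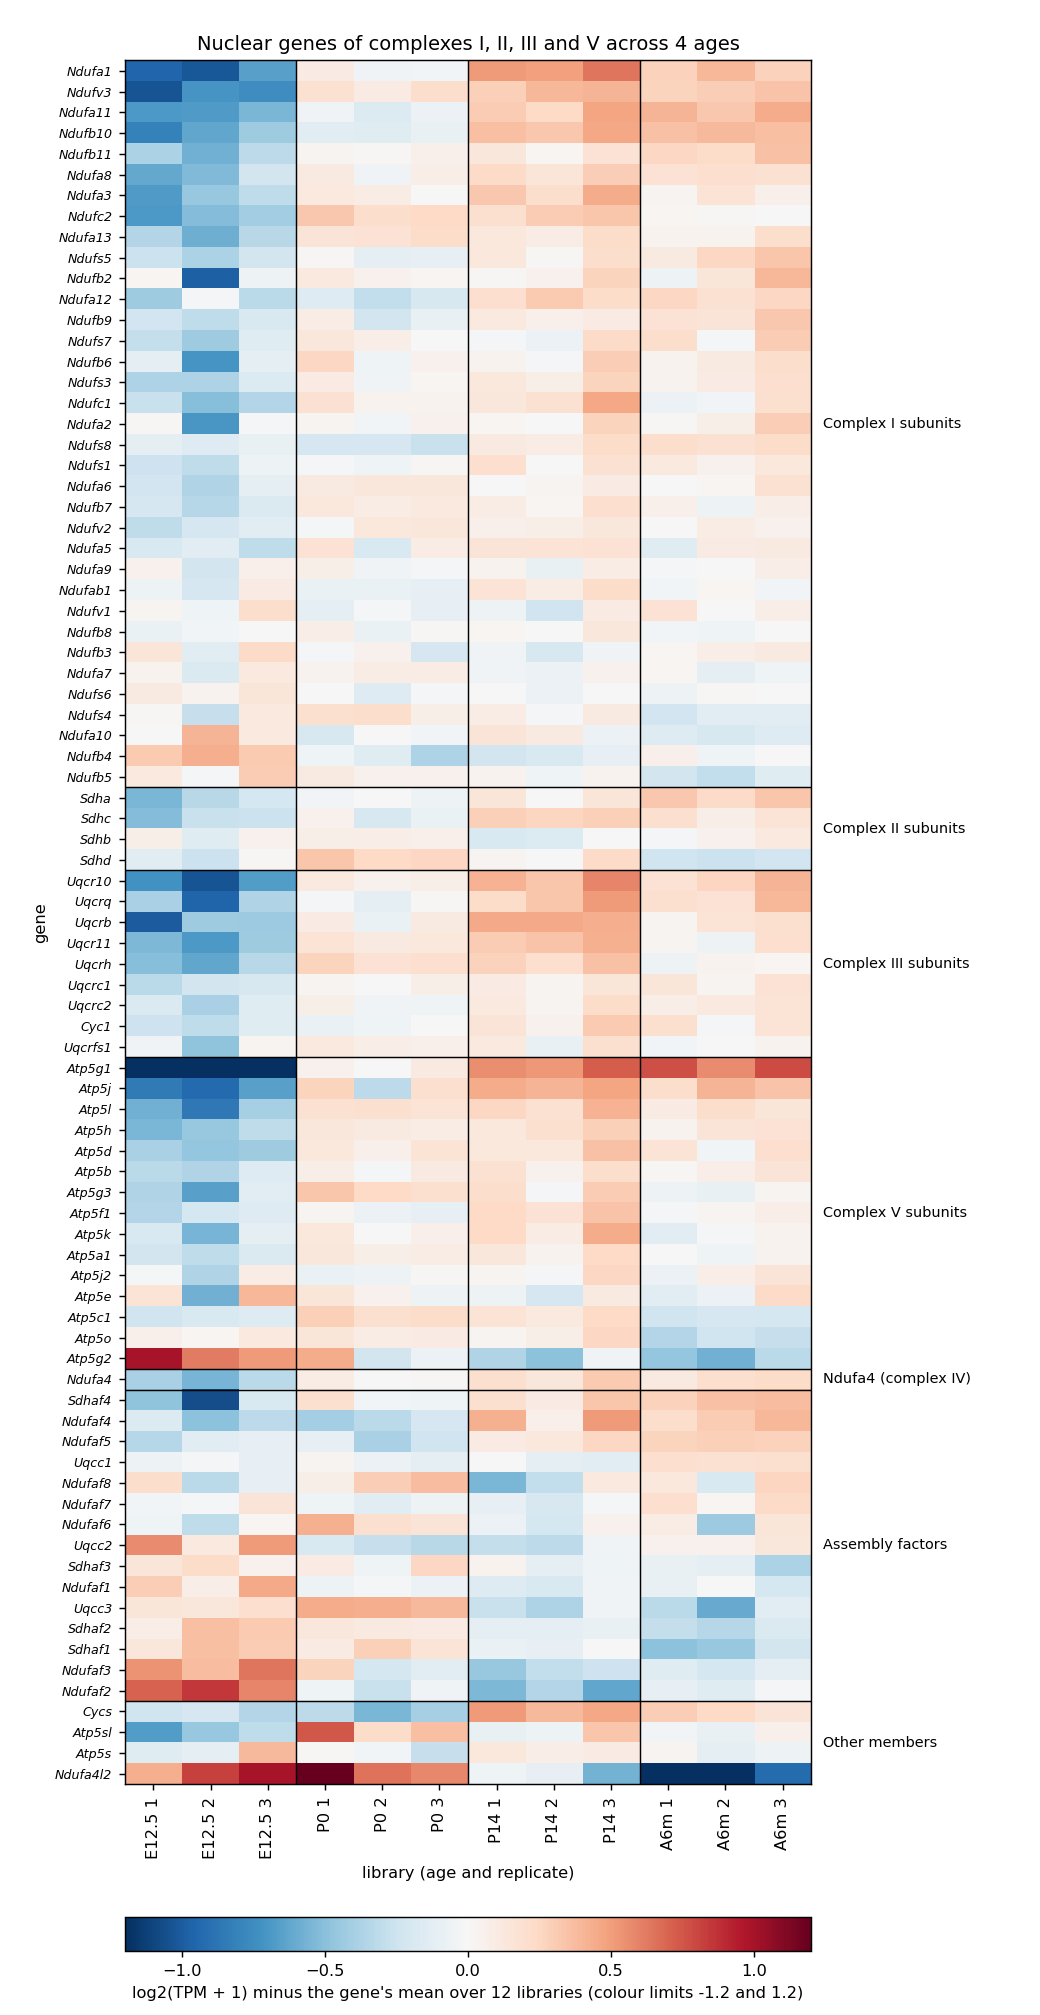
Each row is a gene and each column a library, ordered by age. Colour gives log2(TPM + 1) minus the gene's mean over the 12 libraries. Rows are grouped by complex and class and sorted by the difference of A6m and E12.5. The row of 1 complex I subunit is not drawn. Most subunit rows are lowest at E12.5 (48 of 65 have their lowest mean there), and 7 of 15 assembly factors have their highest mean there.

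The mean TPM was highest at E12.5 for 8 of the 65 subunits, at P0 for 10, at P14 for 33 and at A6m for 14. Among the 15 assembly factors the highest mean was at E12.5 for 7, at P0 for 3, at P14 for 1 and at A6m for 4. With scaling, 63 of 65 subunits and 11 of 15 assembly factors had their lowest mean at E12.5. Ages of highest and lowest mean were not counted over all tested genes, so these counts have no background beside them.

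The c subunit of ATP synthase held the largest rise, in 1 of its 3 genes. Atp5g1, Atp5g2 and Atp5g3 each encode a precursor that is cut to the same mature c subunit, and they differ in the sequence that targets it to mitochondria. Atp5g1 was at 111, 107 and 125 TPM in the E12.5 libraries, 306, 294 and 318 TPM at P0, 435, 424 and 488 TPM at P14 and 503, 438 and 507 TPM at A6m. The E12.5, P0 and P14 libraries did not overlap, whereas those of P14 and A6m did. It rose by 1.41 ± 0.08 (log2 difference ± SE) at P0 against E12.5, adjusted p = 1.54e-07, and by 0.55 ± 0.08 at P14 against P0, adjusted p = 0.000297. At A6m against E12.5 the difference was 2.07 ± 0.08, adjusted p = 2.26e-09, the largest rise among the 84 genes, and it was 2.92 with scaling.

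Atp5g3 gave the most c-subunit transcript at every age. Its TPM was 520, 426 and 613 at E12.5, 842, 791 and 765 at P0, 777, 665 and 826 at P14 and 642, 628 and 684 at A6m. P0 libraries were all above those of E12.5 (0.63 ± 0.12, adjusted p = 0.000892), and P14 libraries overlapped those of P0. Atp5g2 stood at 27.9, 21.3 and 19.7 TPM at E12.5, 18.8, 11.4 and 12.8 TPM at P0, 10.3, 9.34 and 13.1 TPM at P14 and 9.52, 8.75 and 10.6 TPM at A6m. It fell at P0 against E12.5 (-0.66 ± 0.19, adjusted p = 0.00977) and at A6m against E12.5 (-1.16 ± 0.19, adjusted p = 0.000146), and was not called in either with scaling (-0.38, adjusted p = 0.160, and -0.37, adjusted p = 0.164).

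Within each library, Atp5g1 took a larger part of the summed c-subunit TPM at each later age. Its share was 16.8%, 19.3% and 16.5% at E12.5, 26.2%, 26.8% and 29.0% at P0, 35.6%, 38.6% and 36.8% at P14 and 43.6%, 40.8% and 42.2% at A6m. No 2 ages overlapped. From E12.5 to A6m the share of Atp5g3 averaged 78.9% ± 2.05, 71.4% ± 1.36, 62.1% ± 1.49 and 57.0% ± 1.42, and that of Atp5g2 3.56% ± 0.850, 1.27% ± 0.297, 0.893% ± 0.0795 and 0.840% ± 0.0368 (SD, n = 3). An exact permutation test of the Atp5g1 share, with the 12 libraries dealt over 4 ages, gave p = 6.49e-05, the smallest that 369600 arrangements can give. The share was chosen after the levels had been seen, so this p is no independent support. The same exact permutation test of the ratio of Atp5a1 to Atp5b, which encode the alpha and beta subunits of ATP synthase, gave p = 0.0744, and adjusted over both tests the values were 0.00013 and 0.0744. That ratio averaged 0.537 ± 0.0240, 0.537 ± 0.0203, 0.516 ± 0.0127 and 0.490 ± 0.0204 from E12.5 to A6m (SD, n = 3). Neither measure depends on library scaling. The sum of all 3 genes was 657 ± 101.4, 1119.5 ± 40.7, 1216 ± 115 and 1144 ± 63.9 TPM at the 4 ages.

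**Figure D3:**
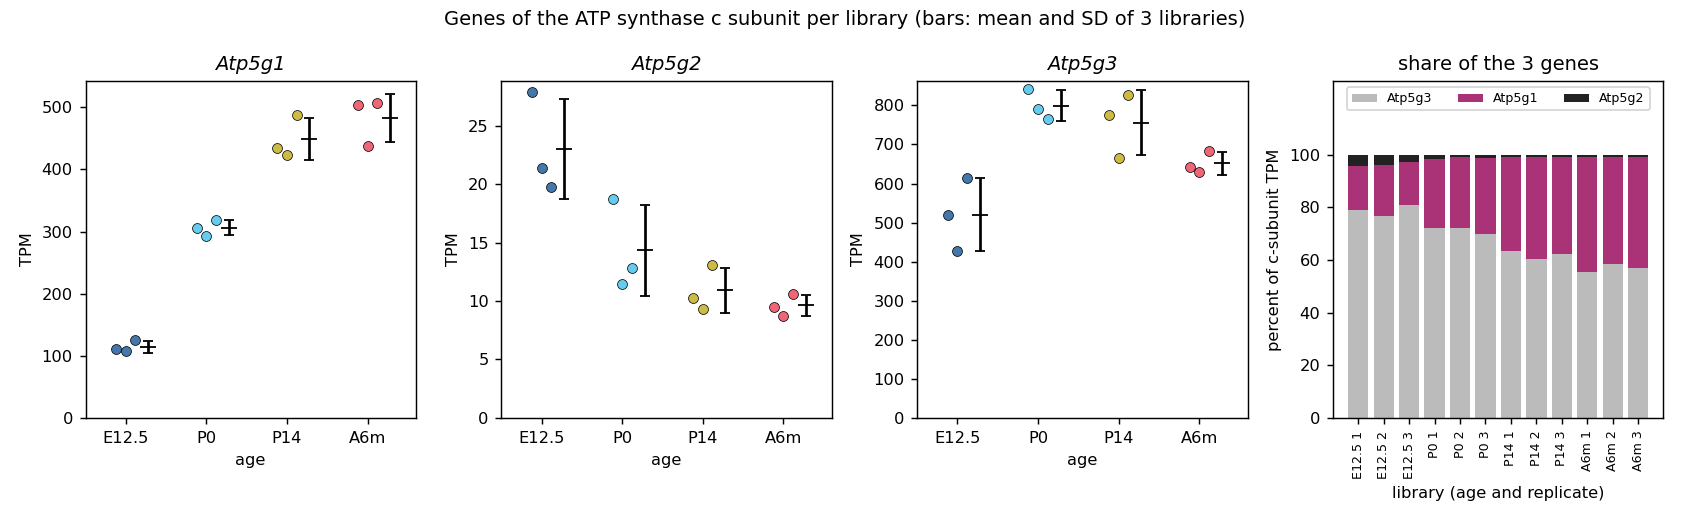
The first 3 panels plot TPM of Atp5g1, Atp5g2 and Atp5g3 per library (points) with mean and SD of 3 libraries (bars), each on its own axis from 0. The right panel stacks their percent of summed c-subunit TPM in each library: Atp5g1 lies between 40.8% and 43.6% at A6m and between 16.5% and 19.3% at E12.5.

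The promoters of these 3 genes are shown because transcripts for the same mature protein moved apart. Each window runs 250 bases before to 50 bases after the start site in RefSeq (GRCm38.p6), 5′ to 3′ along the gene. Capitals mark letters that match motifs of 4 kinds of regulator of mitochondrial genes, searched on both strands: GCGCA, any base and GCGC for NRF1, CCGGAAG for GABPA and other ETS factors, AAGATGGC for YY1 and TCAAGGTCA for ESRRA. The windows lie at chr11:96075582-96075881, chr15:102670998-102671297 and chr2:73911277-73911576, all on the minus strand.
Atp5g1: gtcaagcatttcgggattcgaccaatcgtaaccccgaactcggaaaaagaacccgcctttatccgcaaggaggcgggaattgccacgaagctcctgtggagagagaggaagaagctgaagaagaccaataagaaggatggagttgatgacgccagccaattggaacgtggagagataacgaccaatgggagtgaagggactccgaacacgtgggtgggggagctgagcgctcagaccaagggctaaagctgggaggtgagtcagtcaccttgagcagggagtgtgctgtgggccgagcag
Atp5g2: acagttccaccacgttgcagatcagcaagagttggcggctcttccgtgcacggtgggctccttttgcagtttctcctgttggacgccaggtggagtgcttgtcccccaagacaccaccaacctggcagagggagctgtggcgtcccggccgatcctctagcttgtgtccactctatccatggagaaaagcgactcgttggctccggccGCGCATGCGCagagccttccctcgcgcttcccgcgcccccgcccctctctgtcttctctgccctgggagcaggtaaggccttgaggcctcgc
Atp5g3: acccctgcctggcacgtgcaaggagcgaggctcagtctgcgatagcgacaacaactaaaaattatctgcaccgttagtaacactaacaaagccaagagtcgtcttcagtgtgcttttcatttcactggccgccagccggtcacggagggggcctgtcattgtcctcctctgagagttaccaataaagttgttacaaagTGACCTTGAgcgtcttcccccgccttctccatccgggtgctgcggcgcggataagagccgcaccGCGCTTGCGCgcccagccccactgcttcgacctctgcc
The Atp5g1 window holds no match to the 4 motifs. The Atp5g2 window holds an NRF1 motif that begins 42 bases before the start site and reads as a match on both strands. In Atp5g3 an ESRRA motif on the opposite strand begins 52 bases before the start site, and an NRF1 motif begins 12 bases after it. A match is a description of letters, and binding was not measured.

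RefSeq windows were found for 72 of the 84 genes, 78 windows in all. NRF1 motifs were present in 28.2% of them, against 8.98% of 14707 windows of tested genes and 4.6% of all 32851 windows. ETS motifs were in 23.1%, 15.7% and 8.86% of the same 3 sets, YY1 motifs in 17.9%, 3.94% and 2.75%, and ESRRA motifs in 2.56%, 0.272% and 0.423%. The GC-box letters GGGCGG, which Sp1 binds, were in 48.7%, 59.6% and 35.7%. By class they were in 13 of 14 windows of assembly factors and in 23 of 60 windows of subunits. At A6m against E12.5 as deposited the median log2 difference was 0.31 over 21 genes with an NRF1 motif and 0.27 over 51 genes without one. With and without the GC box it was 0.14 (37 genes) and 0.45 (35 genes), or 0.94 and 1.26 with scaling. With and without the others it was 0.26 (18) and 0.32 (54) for ETS, 0.15 (13) and 0.33 (59) for YY1, and 0.11 (2) and 0.29 (70) for ESRRA. These differences were not tested.

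At P0 against E12.5 the subunit genes that were called mostly rose on both scales. The assembly factors that were called mostly fell as deposited and mostly rose with scaling. As deposited, 41 of the 84 genes were called higher, where 18.6% of all tested genes were, and 7 were called lower, where 43.7% of all tested genes were. With scaling 61 were higher and 3 lower, where 29% and 31% of all tested genes were called. Subunits accounted for 39 of the 41 and for 3 of the 7, with a median log2 difference of 0.33. Of 15 assembly factors 1 rose and 4 fell, where 18.6% and 43.7% of all tested genes did. Their median was -0.05, above the median of -0.27 over all tested genes. With scaling 5 rose and 2 fell, where 29% and 31% of all tested genes did. Leaving out E12.5 replicate 1 gave 41 higher and 9 lower.

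**Figure D4:**
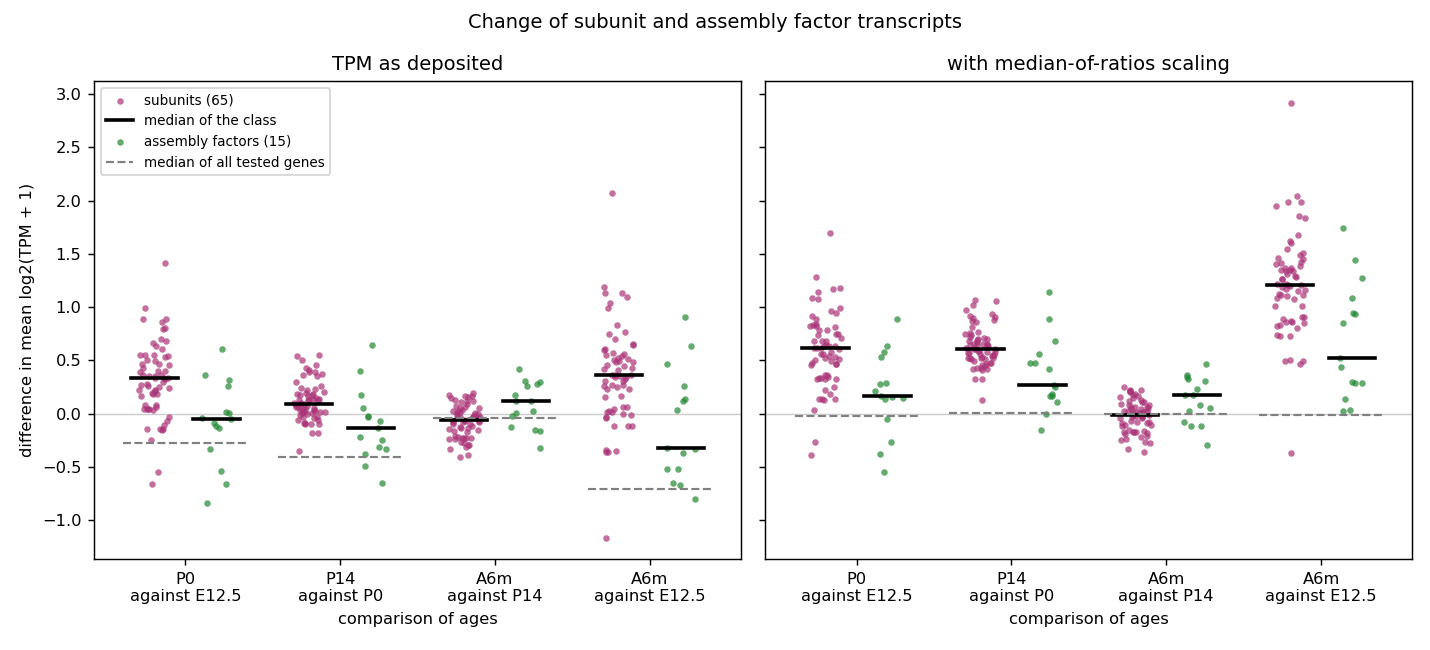
Each point is a gene, placed by its difference in mean log2(TPM + 1) between 2 ages, for 65 subunits (left in each pair) and 15 assembly factors (right), as deposited and with scaling. Black lines are class medians and dashed lines the median of all 17422 tested genes. In P0 against E12.5 as deposited the subunit median is 0.33, that of assembly factors -0.05 and that of all genes -0.27.

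By complex, the genes called at P0 against E12.5 as deposited were 17 higher and 2 lower of 36 complex I subunits (median 0.25), 3 higher of 4 complex II subunits (median 0.30), 7 higher of 9 complex III subunits (median 0.54), and 11 higher and 1 lower of 15 complex V subunits (median 0.35). Of all tested genes 18.6% were called higher and 43.7% lower as deposited. With scaling all 9 complex III and all 4 complex II subunits were called higher, where 29% of all tested genes were. Within complex I as deposited, 3 of 7 core subunits and 14 of 29 accessory subunits rose. Core subunits are the conserved set that carries electrons from NADH to ubiquinone.

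After Atp5g1, the largest rises among subunits were those of Ndufv3, Uqcr10 and Ndufa1. Ndufv3, an accessory subunit of the NADH-binding arm of complex I, was at 369, 349 and 378 TPM at P0 and at 159, 198 and 194 TPM at E12.5. The groups did not overlap, and the difference was 1.00 ± 0.08, adjusted p = 1.83e-06. Uqcr10, a small subunit of complex III, was at 503, 479 and 486 TPM at P0 and at 280, 225 and 290 TPM at E12.5 (0.89 ± 0.10, adjusted p = 2.20e-05). Ndufa1, a small membrane subunit needed for complex I assembly, was at 486, 441 and 443 TPM at P0 and at 234, 223 and 288 TPM at E12.5 (0.88 ± 0.09, adjusted p = 1.16e-05). In both genes every P0 library exceeded every E12.5 library. Ndufa1 and Ndufb11 are on the X chromosome, and the part of sex in their changes was not tested. Ndufb11 rose as well, with 141 ± 2.38 TPM at P0 and 102 ± 9.35 TPM at E12.5 (0.46 ± 0.07, adjusted p = 0.000246).

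Among subunits on a list fixed for every comparison, Atp5b and Sdha rose, as did Atp5a1 and Uqcrc1, while Ndufv1 and Sdhb were not called. The differences of Atp5b and Sdha were near the median of all subunits, 0.33. Atp5b, the catalytic beta subunit of ATP synthase, was at 912, 859 and 934 TPM at P0 and at 693, 677 and 781 TPM at E12.5 (0.33 ± 0.07, adjusted p = 0.00252), without overlap. Sdha, the flavoprotein of complex II that oxidizes succinate, averaged 145 ± 3.25 TPM at P0 and 115 ± 13.5 TPM at E12.5 (0.33 ± 0.08, adjusted p = 0.00449). Ndufv1, which holds the flavin of complex I, was at 58.8, 63.3 and 59.5 TPM at P0 and at 65.3, 61.6 and 74.1 TPM at E12.5, with overlapping libraries and no call. Sdhb, the iron-sulfur subunit of complex II, averaged 109 ± 0.898 TPM at P0 and 103 ± 8.33 TPM at E12.5 and was not called (adjusted p = 0.378), though it was with scaling (0.36, adjusted p = 0.0153).

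The largest fall at P0 was in an assembly factor. Ndufaf2, a chaperone of the late steps of complex I assembly, was at 27.1, 23.1 and 27.2 TPM at P0 and at 46.6, 51.3 and 42.6 TPM at E12.5. All P0 values were below all E12.5 values, with a difference of -0.83 ± 0.10 and adjusted p = 2.34e-05. Uqcc2, needed to make and stabilize the cytochrome b of complex III, was at 65.6, 61.3 and 59.1 TPM at P0 and at 111, 81.1 and 107 TPM at E12.5 (-0.66 ± 0.11, adjusted p = 0.000406). Ndufb4, an accessory subunit of the membrane arm of complex I, was at 19.4, 18.1 and 15.3 TPM at P0 and at 25.3, 27.6 and 25.2 TPM at E12.5 (-0.54 ± 0.09, adjusted p = 0.000271). No library of one age overlapped the other in either gene. Ndufaf2, Uqcc2 and Ndufb4 were the 3 genes also called lower with scaling (-0.55, -0.38 and -0.27, adjusted p = 0.00430, 0.0438 and 0.0332). That count was not stable: leaving out 1 library gave 1 to 4 lower calls with scaling. Without mitochondrially encoded genes and Ttr, 2 assembly factors and 0 subunits were called lower, so Ndufb4 was not. Atp5g2, Ndufaf1, Ndufaf3 and Ndufs6 fell as deposited but were not called with scaling, where Ndufs6 had a difference of 0.13. The call of Ndufs6 (-0.16 ± 0.06, adjusted p = 0.0339) was lost without E12.5 replicate 3 (adjusted p = 0.0804) or P0 replicate 2 (adjusted p = 0.145).

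The promoter windows of Ndufaf2, Ndufb4 and Uqcc2 are shown because these 3 genes fell at P0 on both scales. They lie at chr13:108158576-108158875, chr16:37654319-37654618 and chr17:27133842-27134141, all on the minus strand of GRCm38.p6 in RefSeq, with capitals as above.
Ndufaf2: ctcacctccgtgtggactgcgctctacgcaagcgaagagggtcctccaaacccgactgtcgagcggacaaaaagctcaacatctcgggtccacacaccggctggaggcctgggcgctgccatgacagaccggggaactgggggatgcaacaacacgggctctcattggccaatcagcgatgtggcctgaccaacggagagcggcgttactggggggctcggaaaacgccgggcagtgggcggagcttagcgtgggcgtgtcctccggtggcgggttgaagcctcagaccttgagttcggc
Ndufb4: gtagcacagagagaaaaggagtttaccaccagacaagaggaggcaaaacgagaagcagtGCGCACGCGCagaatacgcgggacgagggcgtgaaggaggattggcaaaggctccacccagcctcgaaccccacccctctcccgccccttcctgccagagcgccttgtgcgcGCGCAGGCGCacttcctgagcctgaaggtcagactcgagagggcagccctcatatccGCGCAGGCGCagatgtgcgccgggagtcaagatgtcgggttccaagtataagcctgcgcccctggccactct
Uqcc2: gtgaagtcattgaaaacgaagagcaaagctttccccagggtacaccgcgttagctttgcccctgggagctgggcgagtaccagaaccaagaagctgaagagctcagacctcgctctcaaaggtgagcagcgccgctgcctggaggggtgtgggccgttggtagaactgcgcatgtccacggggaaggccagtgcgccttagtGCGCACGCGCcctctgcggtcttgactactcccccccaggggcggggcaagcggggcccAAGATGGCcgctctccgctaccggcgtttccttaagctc
The Ndufaf2 window holds no match to the 4 motifs. Ndufb4 holds 3 NRF1 motifs, which begin 191, 79 and 22 bases before the start site. Uqcc2 holds an NRF1 motif 48 bases before it and a YY1 motif that begins 11 bases after it.

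Among assembly factors counted by symbol, 1 rose at P0. Sdhaf4, which helps to join Sdha to Sdhb, was at 71.2, 60.5 and 59.8 TPM at P0 and at 44.3, 29.2 and 54.6 TPM at E12.5. The groups did not overlap, although the E12.5 libraries spread widely, and the difference was 0.61 ± 0.18, adjusted p = 0.0114. Atp5sl, neither subunit nor factor by the symbol rule, is named Dmac2 in newer annotation. Under that name it is on the list of assembly factors outside the symbol rule. It was at 39.5, 27.2 and 29.95 TPM at P0 and at 14.1, 16.7 and 18.6 TPM at E12.5 (0.92 ± 0.15, adjusted p = 0.000343).

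At P14 against P0 few genes were called in TPM, while most rose with scaling. As deposited 19 were called higher at P14 against P0, where 5.33% of all tested genes were, and 7 lower, where 53.5% of all tested genes were. With scaling 72 were called higher, where 22.7% of all tested genes were, and 0 lower, where 19.8% were. At an unadjusted limma p under 0.05 with scaling, 1 gene was lower. Among subunits 16 rose and 1 fell as deposited (median 0.09), and 62 rose with scaling (median 0.60). Among assembly factors 2 rose and 5 fell as deposited (median -0.14), and 8 rose with scaling (median 0.27).

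The subunits with the largest rises were Atp5g1, Ndufa1, Ndufb10 and Ndufa12. Ndufa1 reached 648, 639 and 707 TPM at P14, against 486, 441 and 443 TPM at P0 (0.54 ± 0.09, adjusted p = 0.000654). Ndufb10, of the complex I membrane arm, was at 334, 324 and 357 TPM at P14 and at 235, 235 and 244 TPM at P0 (0.50 ± 0.09, adjusted p = 0.000571). Ndufa12, the subunit that takes the place of Ndufaf2 late in complex I assembly, was at 385, 414 and 388 TPM at P14 and at 299, 272 and 292 TPM at P0 (0.46 ± 0.09, adjusted p = 0.00154). In all 3 genes the P14 libraries lay above the P0 libraries. Ndufaf2 itself fell in the same interval, with 19.1, 21.8 and 17.9 TPM at P14 and 27.1, 23.1 and 27.2 TPM at P0 (-0.38 ± 0.10, adjusted p = 0.00625), but had a difference of 0.11 with scaling, adjusted p = 0.536.

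Assembly factors split between P0 and P14. Ndufaf4, an early complex I assembly factor, was at 27.7, 21.2 and 29.4 TPM at P14 and at 15.05, 16.0 and 17.6 TPM at P0 (0.65 ± 0.13, adjusted p = 0.00134). Ndufaf5, which hydroxylates the core subunit Ndufs7, averaged 18.7 ± 1.14 TPM at P14 and 13.996 ± 1.502 TPM at P0 (0.40 ± 0.09, adjusted p = 0.00362). Uqcc3, which stabilizes cytochrome b in early complex III, was at 19.5, 18.1 and 22.9 TPM at P14 and at 32.5, 32.4 and 31.2 TPM at P0 (-0.65 ± 0.11, adjusted p = 0.000746), but was not called with scaling (-0.15, adjusted p = 0.297). Ndufaf8, a partner of Ndufaf5, averaged 14.99 ± 3.77 TPM at P14 and 21.2 ± 2.33 TPM at P0, with overlapping libraries (-0.49 ± 0.19, adjusted p = 0.0426). Its call was lost without E12.5 replicate 3, P0 replicate 2 or 3, P14 replicate 1 or 2 or A6m replicate 1, and the adjusted p reached 0.161. In Ndufaf4 and Uqcc3 the libraries of both ages did not overlap. The 1 subunit that fell was Sdhb, with 95.8 ± 6.79 TPM at P14 and 109 ± 0.898 TPM at P0 (-0.18 ± 0.07, adjusted p = 0.0497). It was higher with scaling (0.33, adjusted p = 0.0334) and was called as deposited in 4 of the 12 fits that left out 1 library. Without P14 replicate 1, P14 replicate 2, A6m replicate 1 or P0 replicate 3, the 7 lower calls of this comparison became 3 in each case, and without P0 replicate 1 they became 4.

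Cycs, cytochrome c, had the largest called rise between P0 and P14, but its value is uncertain. It was at 62.5, 57.6 and 60.7 TPM at P14 and at 35.0, 29.6 and 32.8 TPM at P0, without overlap (0.87 ± 0.07, adjusted p = 8.78e-06). The gene model Gm10053 has a transcript nearly identical to that of Cycs, and was listed at higher levels: 281 ± 29.99 TPM at P14 and 155 ± 20.3 TPM at P0. How reads were divided between both cannot be told from TPM. Their sum was 173 ± 11.6 TPM at E12.5, 187 ± 22.8 TPM at P0, 341 ± 31.9 TPM at P14 and 303 ± 13.5 TPM at A6m. The P14 libraries, at 306 to 369 TPM, lay above the P0 libraries, at 168 to 212 TPM. Ndufab1, the mitochondrial acyl carrier protein within complex I, was the other gene whose copies reached 10% of its own TPM: the copies summed to 10.6% of it on average. Near-identical transcripts (at least 95% identity over at least 200 bases) were found for 18 of the 84 genes in all.

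Between P14 and 6 months few genes changed. As deposited 3 were called higher, where 8.78% of all tested genes were, and 8 lower, where 12.1% of all tested genes were. With scaling 4 were higher and 5 lower, where 15.2% and 14% of all tested genes were called. On both scales these counts lie below the shares over all tested genes, so the split by class below is only a description. Sex and age cannot be told apart in this comparison. The 3 that rose as deposited, Ndufaf2, Ndufaf7 and Uqcc1, were all assembly factors, and they were called with scaling too. Of the 8 that fell, 7 were subunits: Atp5o, Atp5c1, Sdhd, Uqcr11, Uqcrh, Ndufc2 and Atp5f1. Atp5c1, Atp5o, Ndufc2 and Ndufa4l2 were lower on both scales. The count of higher genes became 1 without P14 replicate 3, and the count of lower genes became 3 without that library, 4 without A6m replicate 1 or 2 and 5 without P14 replicate 2.

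Atp5o and Atp5c1 carry different parts of ATP synthase: Atp5o encodes the protein at the top of the peripheral stalk that confers oligomycin sensitivity, and Atp5c1 the gamma subunit of the turning central stalk. Atp5o was at 328, 354 and 346 TPM at A6m and at 430, 439 and 500 TPM at P14 (-0.41 ± 0.07, adjusted p = 0.00126). Atp5c1 was at 313, 320 and 318 TPM at A6m and at 412, 398 and 435 TPM at P14 (-0.39 ± 0.05, adjusted p = 0.000473). All A6m libraries were below all P14 libraries in both, and each was called in all 12 fits that left out 1 library. The symbol Atp5o stands for 2 annotated genes, which the table does not separate. Sdhd, one of the membrane anchors of complex II, averaged 113 ± 1.24 TPM at A6m and 142 ± 12.3 TPM at P14 (-0.33 ± 0.08, adjusted p = 0.0136), and missed the threshold with scaling (adjusted p = 0.0553) and without P14 replicate 3 as deposited (adjusted p = 0.0575).

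Ndufaf2 was at 26.2, 25.4 and 27.6 TPM at A6m and at 19.1, 21.8 and 17.9 TPM at P14 (0.41 ± 0.10, adjusted p = 0.0116). Uqcc1, which works with Uqcc2 on cytochrome b, was at 40.2, 39.5 and 39.9 TPM at A6m and at 34.6, 32.2 and 31.6 TPM at P14 (0.27 ± 0.06, adjusted p = 0.00865). In both genes the ages did not overlap, though Ndufaf2 missed the threshold without P14 replicate 3 (adjusted p = 0.0517). Ndufaf7, a complex I assembly factor, averaged 28.03 ± 2.25 TPM at A6m and 23.3 ± 1.44 TPM at P14 (0.25 ± 0.08, adjusted p = 0.0489). It was called in 3 of the 12 fits that left out 1 library, which were those without replicate 1 or 3 of E12.5 or replicate 2 of A6m.

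**Figure D5:**
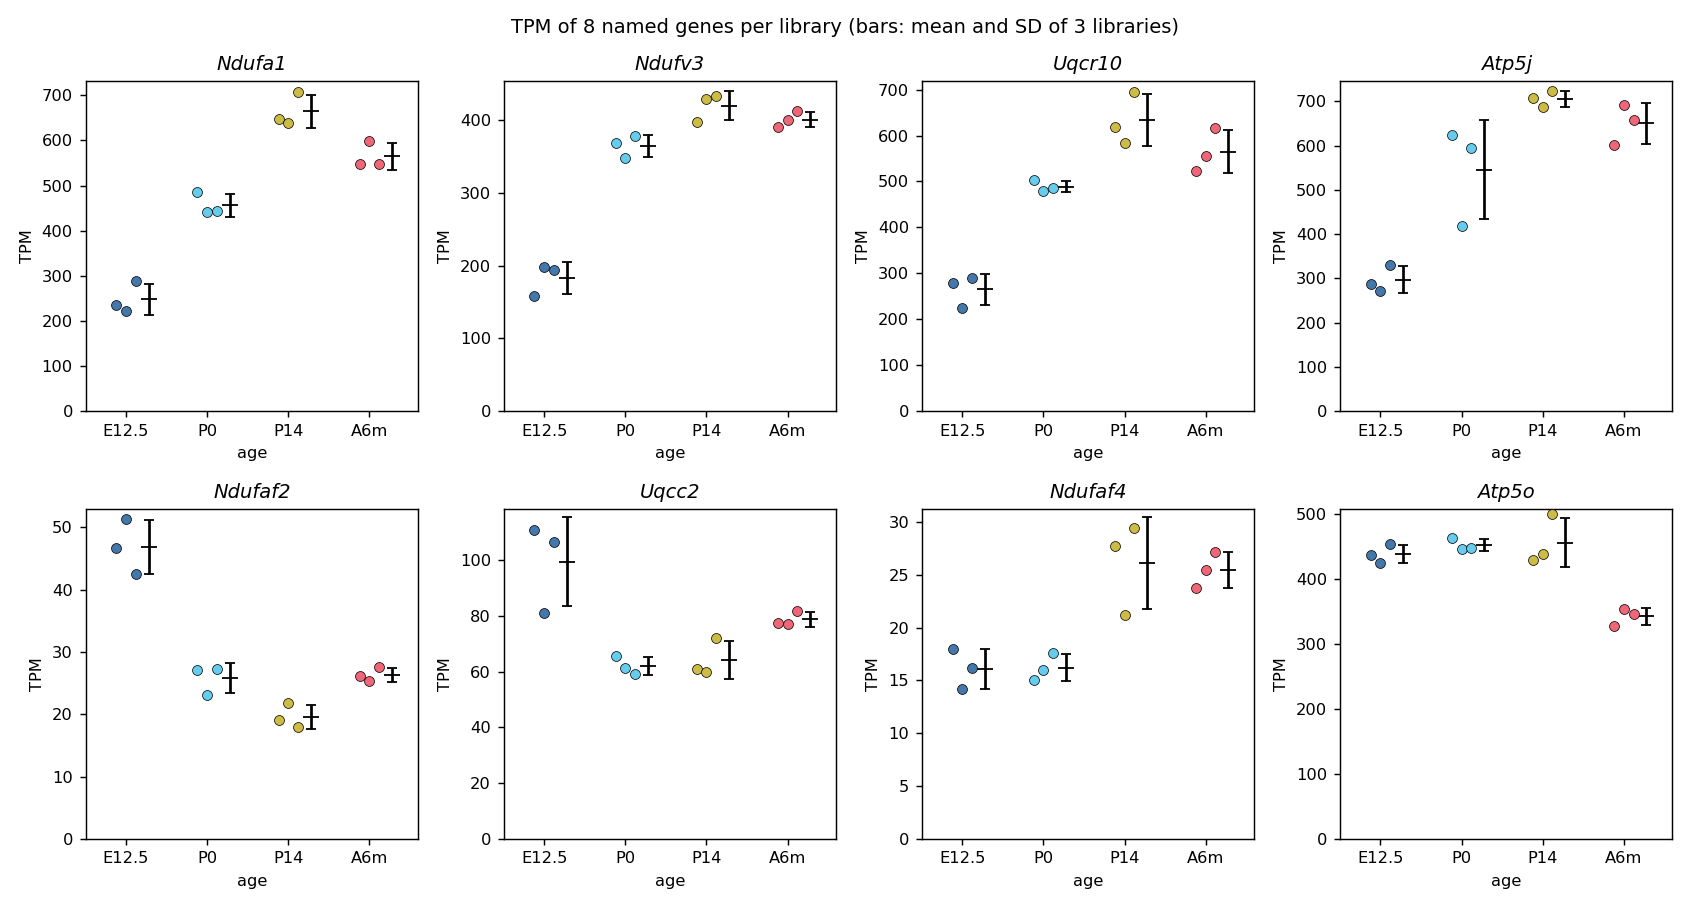
TPM per library (points) with mean and SD of 3 libraries (bars) for 4 subunits that rose (Ndufa1, Ndufv3, Uqcr10, Atp5j), 3 assembly factors (Ndufaf2, Uqcc2, Ndufaf4) and Atp5o, each on an axis from 0. Ndufaf2 is at 17.9 to 21.8 TPM at P14 and at 42.6 to 51.3 TPM at E12.5, and Atp5o at 328 to 354 TPM at A6m and at 430 to 500 TPM at P14.

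Over the whole span, 47 genes were called higher at A6m against E12.5, where 15.2% of all tested genes were, and 14 lower, where 62% of all tested genes were. With scaling 78 were higher and 1 lower, where 35.4% and 35.8% of all tested genes were called. Leaving out E12.5 replicate 1 gave 48 and 13 as deposited, and 79 and 1 with scaling. Of 65 subunits 41 rose and 5 fell (median 0.36), and of 15 assembly factors 4 rose and 8 fell (median -0.32). With scaling 64 subunits and 11 assembly factors rose and none fell, also at an unadjusted limma p under 0.05, with medians of 1.21 and 0.52. By complex, 21 of 36 complex I subunits rose and 3 fell, 2 of 4 complex II and 8 of 9 complex III subunits rose, and 9 of 15 complex V subunits rose and 2 fell.

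Besides Atp5g1, the subunits with the largest rises were Ndufa1, Atp5j and Ndufv3. Ndufa1 was at 548, 599 and 547 TPM at A6m and at 234, 223 and 288 TPM at E12.5 (1.19 ± 0.09, adjusted p = 4.19e-07). Atp5j, coupling factor 6 of the peripheral stalk, was at 602, 692 and 658 TPM at A6m and at 288, 272 and 331 TPM at E12.5 (1.13 ± 0.14, adjusted p = 1.36e-05). Ndufv3 was at 391, 400 and 412 TPM at A6m and at 159, 198 and 194 TPM at E12.5 (1.13 ± 0.08, adjusted p = 2.30e-07). No A6m library overlapped an E12.5 library in these genes. Among assembly factors Sdhaf4 (78.2 ± 2.66 TPM at A6m and 42.7 ± 12.8 TPM at E12.5) and Ndufaf4 (25.5 ± 1.69 and 16.1 ± 1.91 TPM) had the largest rises, of 0.90 ± 0.18 and 0.63 ± 0.13.

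Several calls of this comparison turned with the scale. Ndufb5, Ndufb4, Atp5o, Ndufa10, Ndufaf1, Sdhaf2, Uqcc2 and Uqcc3 were lower at A6m as deposited and higher with scaling. The deposited call of Uqcc2 was lost without E12.5 replicate 1 or 3 or A6m replicate 1 or 2 (adjusted p = 0.0596 to 0.0839). Ndufb5, of the complex I membrane arm, was at 181, 172 and 190 TPM at A6m and at 229, 209 and 261 TPM at E12.5, with a difference of -0.36 ± 0.08 as deposited, adjusted p = 0.00148, and 0.49 with scaling, adjusted p = 0.000351. Ndufaf2 averaged 26.4 ± 1.13 TPM at A6m and 46.8 ± 4.37 TPM at E12.5 (-0.80 ± 0.10, adjusted p = 1.51e-05), and its difference was 0.03 with scaling, adjusted p = 0.861. Ndufaf3, an early complex I assembly factor, averaged 12.9 ± 0.480 TPM at A6m and 21.1 ± 2.06 TPM at E12.5 (-0.67 ± 0.12, adjusted p = 0.000410), and 0.13 with scaling, adjusted p = 0.424.

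Ndufa4 and its paralogue Ndufa4l2 went opposite ways. Ndufa4 was first counted in complex I and is now placed in cytochrome c oxidase, complex IV, and Ndufa4l2 is known from pericytes and from cells short of oxygen. Ndufa4 was at 767, 819 and 830 TPM at A6m and at 546, 484 and 569 TPM at E12.5 (0.60 ± 0.07, adjusted p = 1.95e-05). Ndufa4l2 was at 0.187, 0.153 and 0.891 TPM at A6m and at 3.83, 5.33 and 6.13 TPM at E12.5 (-2.13 ± 0.27, adjusted p = 2.14e-05). It was the gene called lower at A6m against E12.5 on both scales. Markers of mural cells, the pericytes and smooth muscle of vessels, were lower at A6m as well. Their 9 genes summed to 14.4 to 25.2 TPM at A6m and to 145 to 207 TPM at E12.5. Of the 8 tested, 7 were called lower, 6 with scaling, where 62% and 35.8% of all tested genes were. Of these markers 1 was listed at 0 in all E12.5 libraries. Endothelial markers summed to 21.6 to 34.0 TPM at A6m and to 322 to 365 TPM at E12.5. Falls at A6m were not particular to vessel markers. On both scales 6 of 6 macrophage and 4 of 5 fibroblast markers were called lower, and 1 fibroblast marker was called higher. All 5 erythroid markers and all 5 markers of dividing cells were called lower on both scales too. Of all tested genes 62% were called lower as deposited and 35.8% with scaling. The part of vessel cells or other cells in the change of Ndufa4l2 was not tested.

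Transcripts of the partner subunits encoded by mitochondrial DNA are given as ratios to the nuclear sums, without a test. For complex I, summed mitochondrial TPM was 9.23 ± 2.76 times the nuclear sum at E12.5, 11.9 ± 0.702 times at P0, 15.8 ± 1.73 times at P14 and 17.4 ± 1.02 times at A6m (SD, n = 3). The E12.5 libraries ranged from 7.57 to 12.4 and overlapped those of P0, at 11.4 to 12.7, while P14 libraries, at 13.9 to 17.3, lay above both. For complex V the ratio was 6.32 ± 2.31, 6.97 ± 0.383, 9.50 ± 1.41 and 10.7 ± 0.723 at the 4 ages, and for complex III 5.40 ± 1.71, 5.44 ± 0.275, 6.57 ± 0.695 and 7.63 ± 0.482. How well transcripts of mitochondrial DNA enter these libraries was not measured, so the level of a ratio cannot be read as a ratio of molecules.

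Other genes of mitochondrial energy metabolism were read from fixed lists. The counts stand against all tested genes at A6m against E12.5, of which 15.2% were called higher and 62% lower as deposited, and 35.4% higher and 35.8% lower with scaling, with a median of -0.71 as deposited. Of 16 genes of the citric acid cycle and pyruvate dehydrogenase, 7 rose and 2 fell at A6m against E12.5, with a median log2 difference of 0.14, and all 16 rose with scaling. Idh3a, a catalytic subunit of NAD-dependent isocitrate dehydrogenase, was at 221 ± 3.74 TPM at A6m and 69.7 ± 9.37 TPM at E12.5 (1.66, adjusted p = 2.83e-08), and Ogdh, of the oxoglutarate dehydrogenase complex, at 180 ± 12.7 and 79.5 ± 11.3 TPM (1.18, adjusted p = 9.16e-07). Of 7 genes for ATP and phosphate carriers, porins and mitochondrial creatine kinase, 4 rose and 3 fell, with a median of 0.31, and all 7 rose with scaling. Ckmt1, a mitochondrial creatine kinase, was at 9.80 ± 0.201 TPM at A6m and 0.767 ± 0.298 TPM at E12.5 (2.62, adjusted p = 6.42e-08).

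Of 15 listed genes of protein import and inner membrane organization, 10 fell at A6m against E12.5 (median -0.54) and the other 5 were not called, where 62% of all tested genes fell with a median of -0.71, so the list's falls are near the background. With scaling 7 rose and 3 fell, where 35.4% and 35.8% of all tested genes did. Phb2, a scaffold protein of the inner membrane, was at 38.1 ± 2.87 TPM at A6m and 115 ± 9.76 TPM at E12.5 (-1.57, adjusted p = 1.39e-08), and Tomm22, a receptor of the outer membrane import pore, at 49.3 ± 2.35 and 114 ± 11.8 TPM (-1.18, adjusted p = 1.03e-07). Both stayed lower with scaling (-0.72 and -0.34). Of 14 tested assembly factors outside the symbol rule, 3 rose and 4 fell as deposited (median -0.03), where 15.2% and 62% of all tested genes did, and 11 rose with scaling, where 35.4% did, while the other 3 were not called. The share that rose as deposited is near the background. Lyrm7, a chaperone of the complex III iron-sulfur protein, averaged 9.79 ± 1.35 TPM at A6m and 5.02 ± 1.84 TPM at E12.5 (0.89, adjusted p = 0.00356), and Timmdc1, of complex I assembly, 12.001 ± 0.525 and 20.9 ± 0.620 TPM (-0.75, adjusted p = 2.94e-06).

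Of 14 listed regulators of mitochondrial gene expression, 3 rose and 8 fell at A6m against E12.5 as deposited (median -0.56), where 15.2% and 62% of all tested genes did, and 6 rose and 4 fell with scaling, where 35.4% and 35.8% did. These shares are near the background. Ppargc1a, the coactivator PGC-1alpha, was at 22.2 ± 1.55 TPM at A6m and 6.25 ± 2.00 TPM at E12.5 (1.72, adjusted p = 2.73e-06), and its level at P0 was already 25.3 ± 0.917 TPM. Nrf1, which binds the NRF1 motif, was at 6.70 ± 0.645 TPM at A6m and 23.2 ± 1.87 TPM at E12.5 (-1.65, adjusted p = 1.50e-07). Gabpb1, a partner of the ETS factor GABPA, was at 9.45 ± 0.302 TPM at A6m and 33.7 ± 3.39 TPM at E12.5 (-1.73, adjusted p = 1.17e-08). Nrf1 and Gabpb1 were lower with scaling as well (-0.87 and -0.92). Transcript levels of a factor say nothing here of its binding.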

How the data were processed

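Choroid plexus RNA was put into libraries with a Kapa mRNA kit, per the labels' protocols, and sequenced as paired ends. The authors deposited TPM values per gene symbol, computed with kallisto on GRCm38 per the submitters' processing notes, and the annotation release and transcript-to-gene step are not given in the sources used here. TPM keeps no read counts, so depth is unknown, and each library sums to 1000000. The 12 columns named for E12.5, P0, P14 and A6m were used, and 7 other columns were not used. Members and gene lists were chosen with earlier results of these data known. Genes with at least 1 TPM in at least 3 libraries (17422) were tested on log2(TPM + 1) with limma 3.58.1 in R 4.3.3 (eBayes with trend, 4 age means, 8 residual degrees of freedom), with Benjamini-Hochberg adjustment over all of them and calls under 0.05. Fold values are on that log2 scale, which understates changes of low genes. The test was checked on simulated data. Alternatives were 3 scales, pseudocounts 0.1 and 5, 2 filters, a fit of 6 libraries, a replicate block and leaving out each library. Named in each comparison were the 4 subunits and 2 assembly factors with the largest called rise and fall and at least 5 TPM in the higher age. A fixed list of core subunits and factors was also set for every comparison, but only part of it is described. Of that list Ndufs1, Uqcrc1 and Cyc1 are given no values, and Uqcrfs1 and Sdhaf1 appear only among the reversed differences below. Up to 4 called genes per pathway list were named. Other genes named were chosen after their values were seen. Near-identical transcripts were found with BLAST 2.17.0. Promoters are RefSeq windows of GRCm38.p6. Values of 1 gene are not reported here by name.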

Additional observations from a re-analysis of the deposited data

How the results depend on the processing

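Of 3352 recomputed differences of 40 named genes, 3060 kept their direction and side of the threshold, 100 lost it, 125 gained it and 67 reversed, all 67 under the 3 scale settings. With median-of-ratios scaling, the log2 difference was positive instead of negative in P0 against E12.5 for Ndufab1 (0.25), Ndufb5 (0.22), Ndufs6 (0.13), in P14 against P0 for Atp5c1 (0.45), Atp5g3 (0.43), Ndufaf1 (0.42), Ndufaf2 (0.11), Ndufaf3 (0.17), Ndufb5 (0.45), Sdhb (0.33), Sdhd (0.33), Uqcc1 (0.47), Uqcrfs1 (0.49) and in A6m against E12.5 for Atp5c1 (0.82), Atp5o (0.50), Ndufaf1 (0.44), Ndufaf2 (0.029), Ndufaf3 (0.13), Ndufb4 (0.47), Ndufb5 (0.49), Ndufs6 (0.73), Sdhaf1 (0.036), Sdhd (0.73), Uqcc2 (0.52), Uqcc3 (0.30). Without mitochondrially encoded genes and Ttr, the log2 difference was positive instead of negative in P0 against E12.5 for Cycs (0.22), Ndufab1 (0.35), Ndufaf1 (0.042), Ndufaf5 (0.32), Ndufb5 (0.32), Ndufs6 (0.23), Ndufv1 (0.24), in P14 against P0 for Atp5c1 (0.22), Ndufb5 (0.22), Sdhb (0.098), Uqcc1 (0.25) and in A6m against E12.5 for Atp5c1 (0.64), Atp5o (0.31), Ndufaf1 (0.26), Ndufb4 (0.29), Ndufb5 (0.30), Ndufs6 (0.55), Sdhd (0.55), Uqcc2 (0.34), Uqcc3 (0.12). With quantile normalization, the log2 difference was positive instead of negative in P0 against E12.5 for Ndufaf5 (0.26), Ndufs6 (0.00043), Sdhaf1 (0.24), in P14 against P0 for Atp5c1 (0.31), Ndufaf1 (0.35), Ndufaf2 (0.028), Ndufaf3 (0.14), Ndufb5 (0.22), Sdhaf1 (0.30), Sdhb (0.087), Uqcc1 (0.34) and in A6m against E12.5 for Atp5c1 (0.39), Atp5o (0.10), Ndufaf1 (0.32), Ndufaf3 (0.067), Ndufb4 (0.34), Ndufb5 (0.013), Ndufs6 (0.29), Sdhaf1 (0.28), Sdhd (0.29), Uqcc2 (0.13), Uqcc3 (0.17). The cause was not tested.

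Counts moved by over 1.5 times as follows. At P0 against E12.5 the 41 higher became 71 without mitochondrially encoded genes and Ttr, and the 7 lower became 3 with scaling, 2 without those genes and 3 with quantile normalization. At P14 against P0 the 19 higher became 72, 62 and 60 under the same settings, and the 7 lower became 0, 2 and 0, and 3 with no filter. At A6m against P14 the 8 lower became 5 with scaling or no filter and 14 in the fit of 6 libraries. At A6m against E12.5 the 47 higher became 78, 76 and 75, and the 14 lower became 1, 2 and 1. The subunit minus assembly-factor change moved by more than 1 SD to 0.28 for P0 against E12.5 with quantile normalization. For P14 against P0 it became 0.26 with scaling, 0.24 without those genes, 0.11 with quantile normalization, 0.24 and 0.20 with pseudocounts 0.1 and 5, and 0.21 with a mean of at least 5 TPM. For A6m against P14 it became -0.20 with that filter, and for A6m against E12.5 0.52 with scaling, 0.23 with quantile normalization, 0.43 with pseudocount 5 and 0.41 with the filter.

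Leaving out 1 library gave 35 to 45 higher and 6 to 9 lower at P0 against E12.5, 13 to 22 and 3 to 8 at P14 against P0, 1 to 4 and 3 to 12 at A6m against P14, and 44 to 50 and 13 to 15 at A6m against E12.5. The F-test called 61 to 67. The subunit minus assembly-factor changes were 0.39 to 0.42, 0.22 to 0.23, -0.17 to -0.13 and 0.45 to 0.50 in that order. Replicate numbers share no stated source. Deviations of same-numbered libraries from their age means had correlations of -0.078 to 0.11, and those of differently numbered libraries -0.071 to 0.094. With the replicate number as a block, 44 were higher and 7 lower at P0 against E12.5, 21 and 5 at P14 against P0, 3 and 8 at A6m against P14 and 49 and 14 at A6m against E12.5, and the F-test called 66. TPM keeps no depth, so 3 libraries per age limit the precision.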
